A study of Mus musculus with 12 samples.

Results

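The E2F transcription factors E2f1 to E2f8 and the pocket proteins Rb1 and Rbl1 were followed in mouse hepatocytes 48 h after a toxic injury to the liver. These 10 genes were taken by their Ensembl identifiers from a table of 35709 genes, and all 10 passed the filter on low values. RNA was sequenced from hepatocytes purified after Liberase perfusion by differential centrifugation and a Percoll step. The donors were C57BL/6J males, 8 to 10 weeks old. Alb-Cre mice, which carry the Cre recombinase under the hepatocyte promoter of albumin, served as controls, and Alb-R3 mice in addition lack the receptor gene Fgfr3 in hepatocytes according to the labels. Each genotype received olive oil or carbon tetrachloride (CCl4, 0.4 mg per g body weight, intraperitoneally in olive oil), a toxicant that kills hepatocytes around the central vein and is followed by proliferation of the survivors. Each combination of genotype and treatment was sampled 3 times, which gave 4 groups and 12 samples. Every group carries Cre, and the labels name no group without it. The labels do not say that the samples of a group came from separate animals, so the p-values refer to sample spread that may be partly technical.

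E2F proteins bind promoters of genes for DNA replication and cell division. E2f1, E2f2 and E2f3 are the activators, E2f4 and E2f5 are repressors that depend on pocket proteins, E2f6 represses without pocket proteins in a Polycomb complex, and the atypical E2f7 and E2f8 repress without a DP partner. The retinoblastoma protein Rb1 and its relative Rbl1 hold E2F proteins inactive until cyclin-dependent kinases phosphorylate them. In liver, E2f1, E2f7 and E2f8 are known for their opposed parts in the polyploidy of hepatocytes.

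Promoters of 7 of the 10 genes were found among RefSeq promoters (GRCm38.p6, 250 bases before to 50 after the start), with 9 windows in all. E2F genes and Rbl1 are textbook targets of E2F proteins, so the matches to E2F motif letters (TTTCCCGC, TTTGGCGC, TTTCGCGC or TTTGCCGC, on either strand) are shown, in capitals, for the members that had one. The 4 stretches lie 18 bases before the start in Rbl1 (chr2:157204534-157204563, minus strand), 39 bases after it in E2f2 (chr4:136172302-136172323, plus strand), 198 before it in E2f7 (chr10:110745230-110745259, plus strand) and 11 before it in E2f3 (chr13:29986056-29986085, minus strand).
Rbl1: aagaaggcgatTTTCGCGCgctttgtcgcg
E2f2: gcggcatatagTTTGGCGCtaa
E2f7: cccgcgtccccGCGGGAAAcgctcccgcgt
E2f3: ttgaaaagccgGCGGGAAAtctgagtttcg
E2F letters stood in 4 of the 7 members and in 2.6% of the 27025 genes with a window, or 2.26% of 32851 windows. The mean share of G and C was 66.3% in the 9 member windows and 53.8% in all windows. No background of like base composition was used, and only 7 of the 10 members have a window. The motif shares are therefore a description, and no conclusion is drawn from them.

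A second motif, the cell cycle homology region (CHR, letters TTTGAA or TTCGAA on either strand), is the site through which the MuvB complex reaches genes of G2 and mitosis. Its letters, in capitals, were found 31 bases before the start of the second E2f2 window (chr4:136180740-136180767, plus strand), 20 before that of E2f8 (chr7:48881600-48881627, minus strand) and 23 before that of E2f3 (chr13:29986070-29986097, minus strand).
E2f2: tagcctgtgtgTTTGAAtggtgtggaac
E2f8: agcgggttaatTTCAAAtcgggggctgg
E2f3: tgcaaatatggTTTGAAaagccggcggg
In E2f3 the last bases of the CHR stretch are the first of its E2F stretch, and the 2 sets of motif letters do not overlap. CHR letters are common, with 21.7% of all genes and 3 of the 7 members holding them. The E2f1 and E2f6 windows held neither motif, which says only that these letters are not in these windows. The E2f1 window (chr2:154569377-154569676) lies wholly inside the gene as placed by GENCODE (chr2:154559407-154569892, minus strand). Bases before the GENCODE start of E2f1 were thus not searched. The second E2f2 window (chr4:136180532-136180831) also lies inside its gene (chr4:136172394-136196057). The first E2f2 window (chr4:136172024-136172323) ends before the GENCODE start of the gene. Its E2F letters thus lie after the RefSeq start but before the GENCODE start.

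The depth of the libraries was between 28000000 and 39600000 estimated reads. Behind the lowest member value, for E2f7 in an oil library, stood 5.01 reads, and behind the lowest of E2f1 stood 49.3 reads. Fgfr3, the gene deleted in Alb-R3, had normalized counts (reads scaled per library by the authors) of 734.9, 887.6 and 988.1 in Alb-Cre against 523.1, 650.5 and 1109 in Alb-R3 after oil. After CCl4 it had 950.9, 705.7 and 753 in Alb-Cre against 477.7, 372.1 and 382.3 in Alb-R3. The genotypes were apart after CCl4 (log2 −0.96 ± 0.24, limma adjusted p = 0.252) and overlapped after oil. The highest Fgfr3 of all 12 libraries was that of the library labelled Alb-R3 oil replicate 3, which goes against its label. The other Alb-R3 libraries still had 372.1 to 650.5, so the count over the whole gene cannot settle whether a label is right. Alb-R3 CCl4 replicate 1 also stood apart: 32.3% of its normalized counts were mitochondrial against 6.22% to 12.8% in the other libraries. Its summed FPKM (fragments scaled to gene length and library depth) over 16 markers of Kupffer cells and macrophages was 438, against 93.2 and 131 in the other libraries of its group, and its 11 hepatocyte markers summed to 63995 against 83738 to 131300 elsewhere.

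After CCl4, E2f1, E2f2, E2f3, E2f7, E2f8 and Rbl1 were higher than after oil in both genotypes, and no member was lower. In Alb-Cre, 6 of 10 members were higher (limma on log2(normalized count + 1), adjusted p under 0.05 over 20244 genes), against 3.46% of all tested genes higher and 0.988% lower. In Alb-R3, the same 6 members were higher, against 10.9% of all tested genes higher and 6.92% lower. Some of these calls lay near the threshold. Of 12 fits without 1 library, 10 lost E2f2, 11 lost E2f7 and 5 lost E2f3 in Alb-Cre. In Alb-R3, 8 lost E2f3 and 4 lost E2f8. The median log2 change of the 10 members was 1.14 in Alb-Cre and 1.02 in Alb-R3, beside 0.02 and 0.00 over all tested genes. All 3 CCl4 libraries lay above all 3 oil libraries for 7 of 10 members in Alb-Cre (13.3% of tested genes) and for 7 of 10 in Alb-R3 (18.1%). Samples are of bulk RNA, in which fewer cells expressing a gene and less RNA per cell cannot be told apart.

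**Figure D1:**
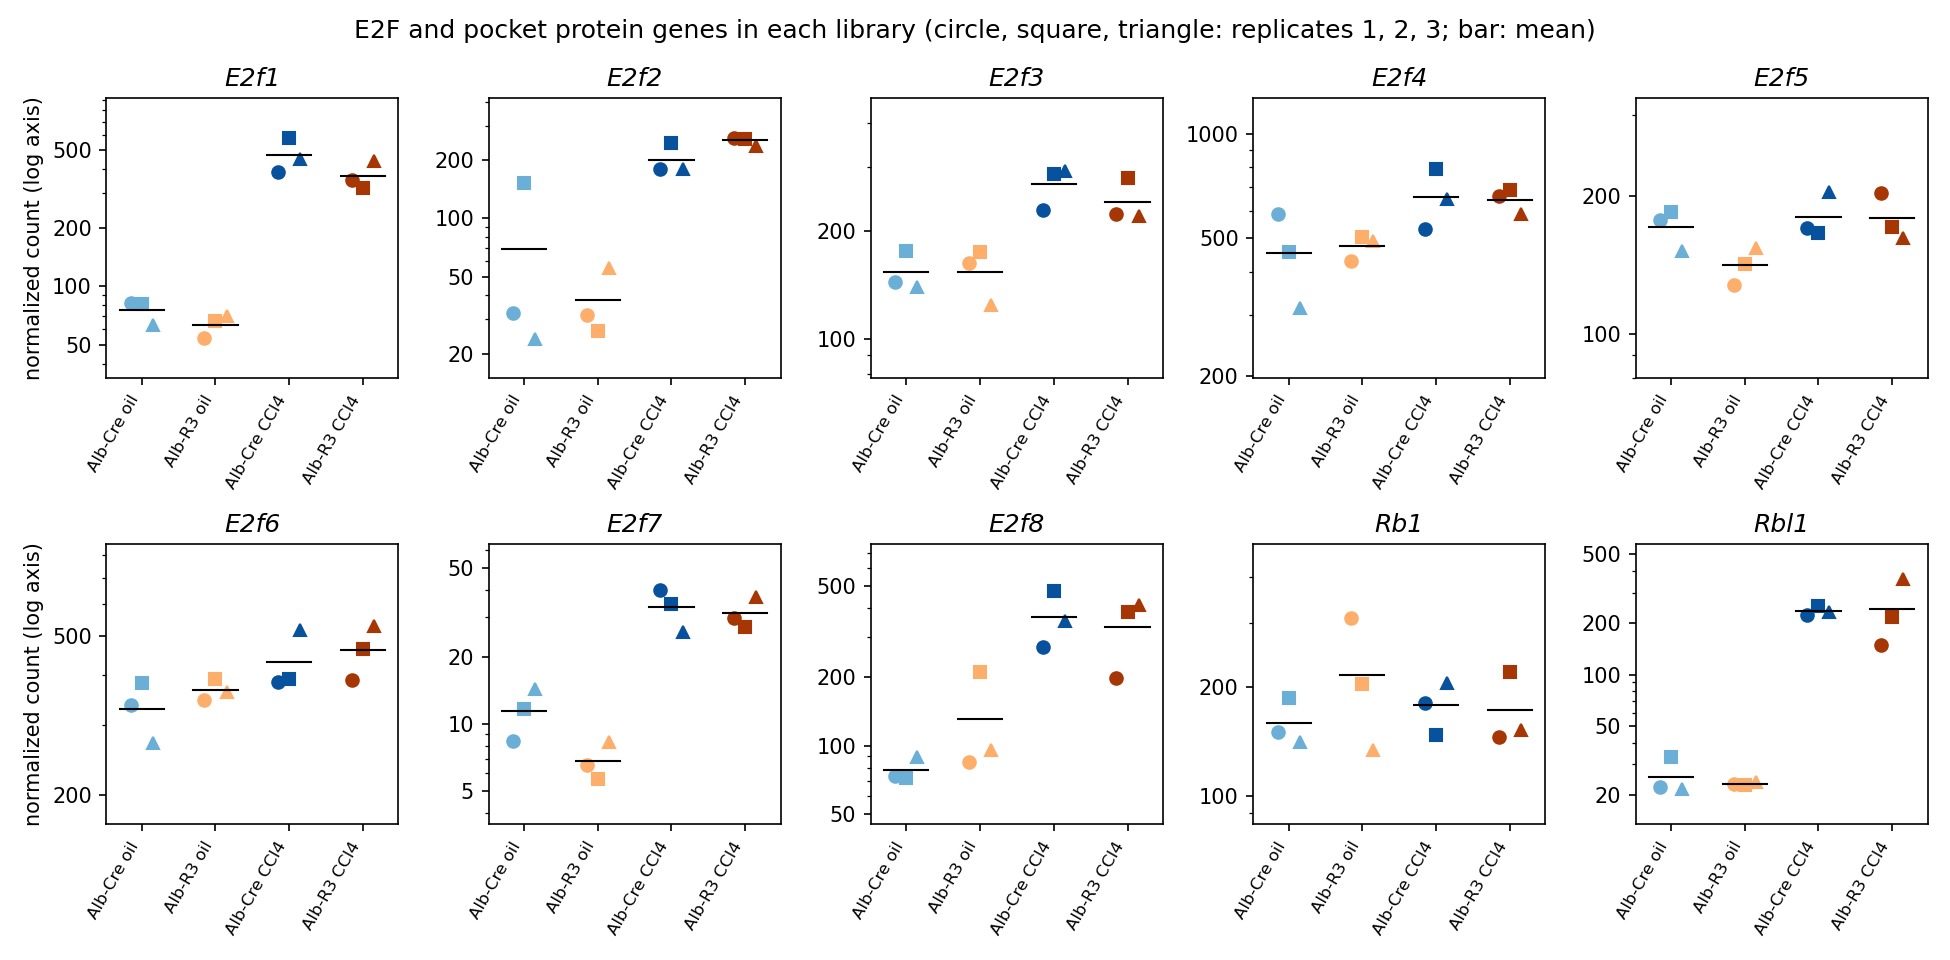
Normalized count (log axis) of each of the 10 genes in the 12 libraries by group, with replicates as circles, squares and triangles and the group mean as a bar. E2f1 and Rbl1 after CCl4 lie above every oil library, whereas for Rb1 the groups overlap.

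The activator E2f1 drives entry into S phase and, when in excess, apoptosis. It lies at chr2:154559407-154569892 (GRCm38, minus strand). Its normalized counts were 81.6, 81.2 and 63.2 in Alb-Cre oil and 387.6, 577.8 and 449.7 in Alb-Cre CCl4. In Alb-R3 they were 53.9, 66.2 and 70.6 after oil and 349.8, 317.9 and 437.9 after CCl4. The lowest CCl4 library thus stood far above the highest oil library in both genotypes. The log2 change was 2.62 ± 0.22 (SE, n = 3 per group; limma adjusted p = 1.43e-05) in Alb-Cre, or 6.15-fold, and 2.51 ± 0.22 (limma adjusted p = 1.19e-05) in Alb-R3, or 5.71-fold. These calls were kept in all 12 fits that left out 1 library.

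E2f2 is an activator that acts with E2f1 and E2f3 in the control of S phase. It lies at chr4:136172394-136196057 (plus strand). Normalized counts were 32.6, 151.7 and 23.9 in Alb-Cre oil and 179.9, 243.6 and 179.5 in Alb-Cre CCl4. In Alb-R3 they were 31.7, 26.1 and 55.6 after oil, and 261.0, 257.8 and 237.2 after CCl4. Alb-Cre oil replicate 2 was the only oil library above 100, and it still lay below every CCl4 library. The log2 change was 1.99 ± 0.52 (limma adjusted p = 0.0493) in Alb-Cre and 2.78 ± 0.52 (limma adjusted p = 0.00314) in Alb-R3. Without Alb-Cre oil replicate 2 the change in Alb-Cre was 2.79 (limma adjusted p = 0.000454), and in 10 of the 12 fits without 1 library, all but that one and the fit without Alb-R3 CCl4 replicate 1, the call was lost (limma adjusted p up to 0.183). In Alb-R3 the call was kept in all 12.

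E2f3, an activator needed for normal proliferation of many cell types, lies at chr13:29906575-29986063 (minus strand) and rose least of the 6. Its normalized counts were 143.8, 176.0 and 139.6 in Alb-Cre oil against 228.5, 288.2 and 292.6 in Alb-Cre CCl4. They were 162.0, 174.5 and 124.2 in Alb-R3 oil against 222.8, 279.8 and 219.6 in Alb-R3 CCl4. The groups did not overlap in either genotype, although the gaps were small. The log2 change was 0.81 ± 0.20 (limma adjusted p = 0.0392) and 0.65 ± 0.20 (limma adjusted p = 0.0435), that is 1.76-fold and 1.57-fold. Of the 12 fits without 1 library, 5 lost the Alb-Cre call (limma adjusted p up to 0.157): those without replicate 1 of either oil group, replicate 3 of Alb-Cre oil, or replicate 2 or 3 of Alb-Cre CCl4. The Alb-R3 call was lost in 8 (limma adjusted p up to 0.149) and kept only without replicate 1 of either CCl4 group or replicate 2 or 3 of Alb-Cre oil.

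The repressors E2f4 and E2f5, which carry pocket proteins to promoters in resting cells, did not pass the test in either genotype. E2f4 (chr8:105297663-105305370, plus strand) had normalized counts of 587.9, 456.0 and 315.0 in Alb-Cre oil and 531.8, 792.6 and 646.6 in Alb-Cre CCl4. It had 430.0, 503.2 and 490.8 in Alb-R3 oil and 660.3, 689.3 and 587.5 in Alb-R3 CCl4. The Alb-Cre groups overlapped and the Alb-R3 groups did not. Its log2 change was 0.56 ± 0.22 (limma adjusted p = 0.193; 95% interval 0.09 to 1.03) and 0.44 ± 0.22 (limma adjusted p = 0.187; −0.03 to 0.91).

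E2f5 (chr3:14578641-14606309, plus strand) ranged from 128.0 to 204.5 over all 12 libraries. Its log2 change was 0.07 ± 0.19 in Alb-Cre (limma adjusted p = 0.905) and 0.34 ± 0.19 in Alb-R3 (limma adjusted p = 0.256). In Alb-R3 the 3 CCl4 libraries (161.9 to 203.2) lay above the 3 oil libraries (128.0 to 153.7), and in Alb-Cre the groups overlapped. On the FPKM scale, on which the median of all genes rose by 0.15 in Alb-Cre and 0.17 in Alb-R3, E2f4 and E2f5 passed the test in Alb-R3, with log2 changes of 0.71 (limma adjusted p = 0.0402) and 0.58 (limma adjusted p = 0.0464).

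E2f6 (chr12:16810963-16839742, plus strand), the repressor without a pocket-binding site, ranged from 269.7 to 530.6 over the 12 libraries. In Alb-Cre the 3 CCl4 libraries (384.0 to 517.8) lay just above the 3 oil libraries (269.7 to 381.1), and in Alb-R3 the groups overlapped. Its log2 change was 0.39 ± 0.19 in Alb-Cre (limma adjusted p = 0.318) and 0.32 ± 0.19 in Alb-R3 (limma adjusted p = 0.272). Among 12 genes of its Polycomb complex PRC1.6 (MGA, L3MBTL2 and others, with the DP partner Tfdp1 and histone deacetylases), 1 was higher in Alb-Cre, and 2 were higher and 1 lower in Alb-R3. These were Tfdp1 in both genotypes, and in Alb-R3 the heterochromatin protein gene Cbx3 (log2 0.46 ± 0.14, limma adjusted p = 0.0388) and the ubiquitin ligase gene Ring1, which fell by 0.69 ± 0.19 (limma adjusted p = 0.0229). Of all tested genes, 3.46% were higher in Alb-Cre, and 10.9% were higher and 6.92% lower in Alb-R3. The Alb-R3 counts of this list lie near those shares. The Alb-Cre count was 2 when replicate 1 of either CCl4 group was left out. The count of higher genes in Alb-R3 was 1 without any of the Alb-R3 oil libraries, Alb-Cre CCl4 replicate 3 or Alb-R3 CCl4 replicate 3. Of 10 germline genes that E2f6 is known to silence, such as Stag3 and Smc1b, 4 reached the filter on low values and none of these passed the test.

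The atypical genes E2f7 and E2f8 encode repressors of E2F targets that are themselves made in S and G2 phase. E2f7 (chr10:110745439-110787384, plus strand) had the lowest level per length of all members. Normalized counts were 8.4, 11.7 and 14.3 in Alb-Cre oil and 39.9, 34.4 and 25.8 in Alb-Cre CCl4. They were 6.57, 5.67 and 8.30 in Alb-R3 oil and 29.9, 27.1 and 36.9 in Alb-R3 CCl4. No CCl4 library overlapped an oil library. The log2 change was 1.47 ± 0.38 (limma adjusted p = 0.0474) in Alb-Cre and 2.04 ± 0.38 (limma adjusted p = 0.00304) in Alb-R3. The Alb-Cre call was lost in 11 of 12 fits without 1 library (limma adjusted p up to 0.167), all but the fit without Alb-R3 CCl4 replicate 1, and the Alb-R3 call was kept in all 12.

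E2f8 (chr7:48866429-48881596, minus strand) had normalized counts of 73.6, 72.1 and 88.6 in Alb-Cre oil and 270.1, 476.6 and 352.9 in Alb-Cre CCl4. In Alb-R3 it had 84.5, 210.7 and 96.1 after oil and 197.3, 383.1 and 412.8 after CCl4. The Alb-R3 groups overlapped, because Alb-R3 oil replicate 2 lay above Alb-R3 CCl4 replicate 1, the library that stands apart. Its log2 change was 2.18 ± 0.36 in Alb-Cre (limma adjusted p = 0.00254), kept in all 12 fits without 1 library. In Alb-R3 it was 1.39 ± 0.36 (limma adjusted p = 0.0182), and 4 fits lost the call: those without Alb-R3 oil replicate 1 or the library labelled Alb-R3 oil replicate 3, and those without Alb-R3 CCl4 replicate 2 or 3 (limma adjusted p up to 0.0849). E2f7 and E2f8 share 86 and 610 exonic bases with transcripts on the opposite strand, 1700020G17Rik and Gm2788. The sources used here do not say whether the counting used strand, and part of either value may belong to the partner.

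Of the pocket protein genes, Rbl1, which encodes p107, rose most of all members, and Rb1 did not pass the test. Rbl1 (chr2:157145893-157204534, minus strand) had normalized counts of 22.1, 33.1 and 21.5 in Alb-Cre oil and 223.6, 251.6 and 231.1 in Alb-Cre CCl4. In Alb-R3 it had 23.0, 22.7 and 23.7 after oil and 148.6, 215.3 and 358.2 after CCl4. All 6 CCl4 libraries stood far above the 6 oil libraries, with the widest spread in Alb-R3 CCl4. The log2 change was 3.18 ± 0.31 (limma adjusted p = 4.44e-05), or 9.07-fold, in Alb-Cre and 3.23 ± 0.31 (limma adjusted p = 2.45e-05), or 9.40-fold, in Alb-R3, and both calls were kept in all 12 fits without 1 library. Its promoter is the one with TTTCGCGC shown above, and the windows of E2f2, E2f3 and E2f7 hold E2F letters as well. The part of these letters in the changes was not tested.

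Rb1 (chr14:73183673-73325822, minus strand), the retinoblastoma gene, had 150.1, 185.7 and 140.8 in Alb-Cre oil and 180.8, 147.5 and 204.5 in Alb-Cre CCl4. It had 308.6, 204.0 and 133.6 in Alb-R3 oil and 145.5, 219.0 and 152.3 in Alb-R3 CCl4. All groups overlapped, and the highest value was in Alb-R3 oil replicate 1. Its log2 change was 0.16 ± 0.29 (limma adjusted p = 0.845; 95% interval −0.46 to 0.78) in Alb-Cre and −0.26 ± 0.29 (limma adjusted p = 0.583; −0.88 to 0.36) in Alb-R3. Rb1 shares exonic bases with Rcbtb2 (488) and Lpar6 (408) on the opposite strand, and E2f5 shares 26 with 1810022K09Rik, with the same limit.

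**Figure D2:**
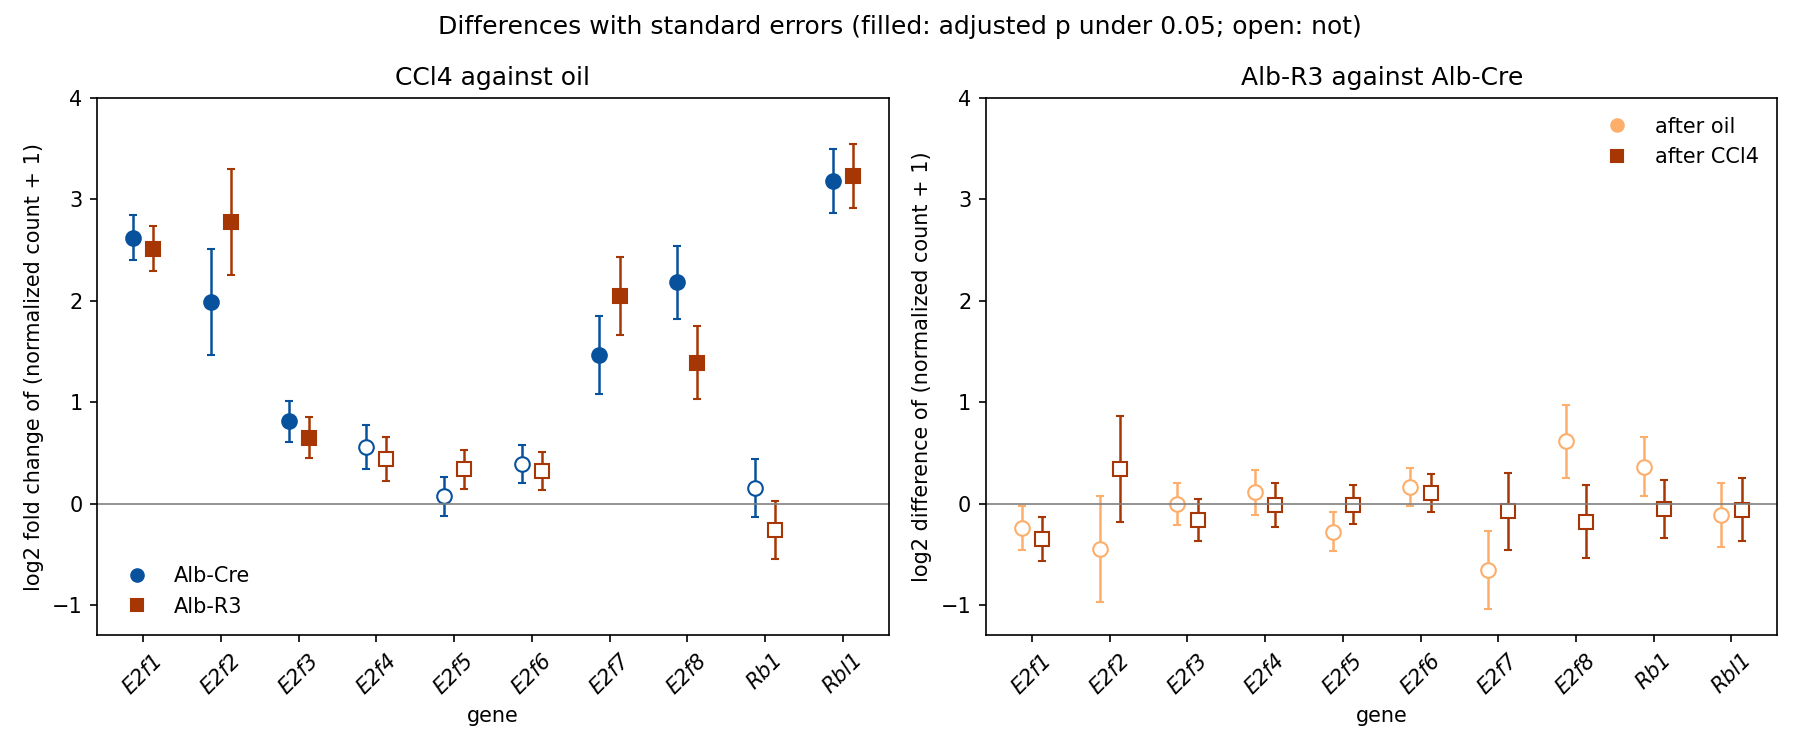
Log2 differences of normalized count + 1 with standard errors for CCl4 against oil in each genotype (left) and for the genotypes within each treatment, as Alb-R3 minus Alb-Cre (right), with filled symbols for an adjusted p under 0.05. The 6 filled genes are the same in both genotypes on the left, and no symbol is filled on the right. In Alb-Cre, E2f2 and E2f7 are filled just under the threshold (limma adjusted p = 0.0493 and 0.0474).

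Levels of different genes can be set side by side only per length, in FPKM. Between treatments the FPKM scale itself shifts: the median log2 change of all genes in FPKM was 0.15 in Alb-Cre. On normalized counts E2f4 and Rb1 changed there by log2 0.56 and 0.16 without passing the test. After oil in Alb-Cre, E2f4 was the most abundant member at 11.03 ± 3.31 FPKM (SD, n = 3), followed by E2f6 at 5.13 ± 0.93 and Rb1 at 3.82 ± 0.62, whose ranges overlapped. E2f5 had 2.76 ± 0.31, E2f3 1.19 ± 0.17, E2f8 0.915 ± 0.101 and E2f1 0.780 ± 0.114 FPKM. The ranges of E2f1 and E2f2 overlapped, as did those of E2f2 (0.770 ± 0.801) and Rbl1 (0.277 ± 0.075), and E2f7 was lowest at 0.167 ± 0.043. After CCl4 in Alb-Cre, E2f4 stood at 18.7 ± 2.8 FPKM and E2f6 at 7.92 ± 1.70, and E2f1 came next at 5.70 ± 0.87. E2f1, Rb1 (5.04 ± 1.06) and E2f8 (4.998 ± 1.161) overlapped as neighbours in that order. Next in the order were E2f5 (3.42 ± 0.55), Rbl1 (2.98 ± 0.07), E2f2 (2.58 ± 0.32) and E2f3 (2.45 ± 0.32), with ranges that overlapped between neighbours, and E2f7 was again lowest at 0.570 ± 0.122. E2f4 was highest and E2f7 lowest in Alb-R3 as well, after either treatment.

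The summed FPKM of the 8 E2F genes was 22.7 ± 4.6 in Alb-Cre oil and 46.3 ± 5.5 in Alb-Cre CCl4, and 22.6 ± 2.3 and 45.2 ± 8.0 in Alb-R3. The activators E2f1 to E2f3 made up 9.02%, 15.6% and 11.4% of it in the Alb-Cre oil libraries and 23.4%, 24.2% and 22.0% in the Alb-Cre CCl4 libraries. In Alb-R3 their share was 9.12% to 10.2% after oil and 20.8% to 22.6% after CCl4. Every CCl4 library thus had a larger share of activators than every oil library. The share of E2f7 and E2f8 went from 5.01% ± 1.82 to 12.0% ± 1.3 in Alb-Cre. In Alb-R3 it went from 6.81% ± 2.77 to 11.1% ± 3.2, where the ranges overlapped (5.13% to 10% and 7.56% to 13.6%). E2f4 with E2f5 went from 60.3% ± 5.7 to 47.7% ± 1.0 in Alb-Cre and from 59.1% ± 2.1 to 48.3% ± 5.2 in Alb-R3, and remained the largest class in all 12 libraries. E2f6 went from 22.7% ± 2.1 to 17.2% ± 3.3 and from 24.4% ± 0.9 to 18.6% ± 2.2. Since shares are taken within a library, they do not depend on how libraries were scaled, but they do depend on the scaling to gene length. On normalized counts, E2f1 to E2f3 together exceeded E2f4 with E2f5 in the Alb-Cre CCl4 libraries and in Alb-R3 CCl4 replicate 3. No test was made on these sums, whose genes were chosen with earlier results known. The rise of the summed FPKM after CCl4 includes the shift of the FPKM scale given above.

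**Figure D3:**
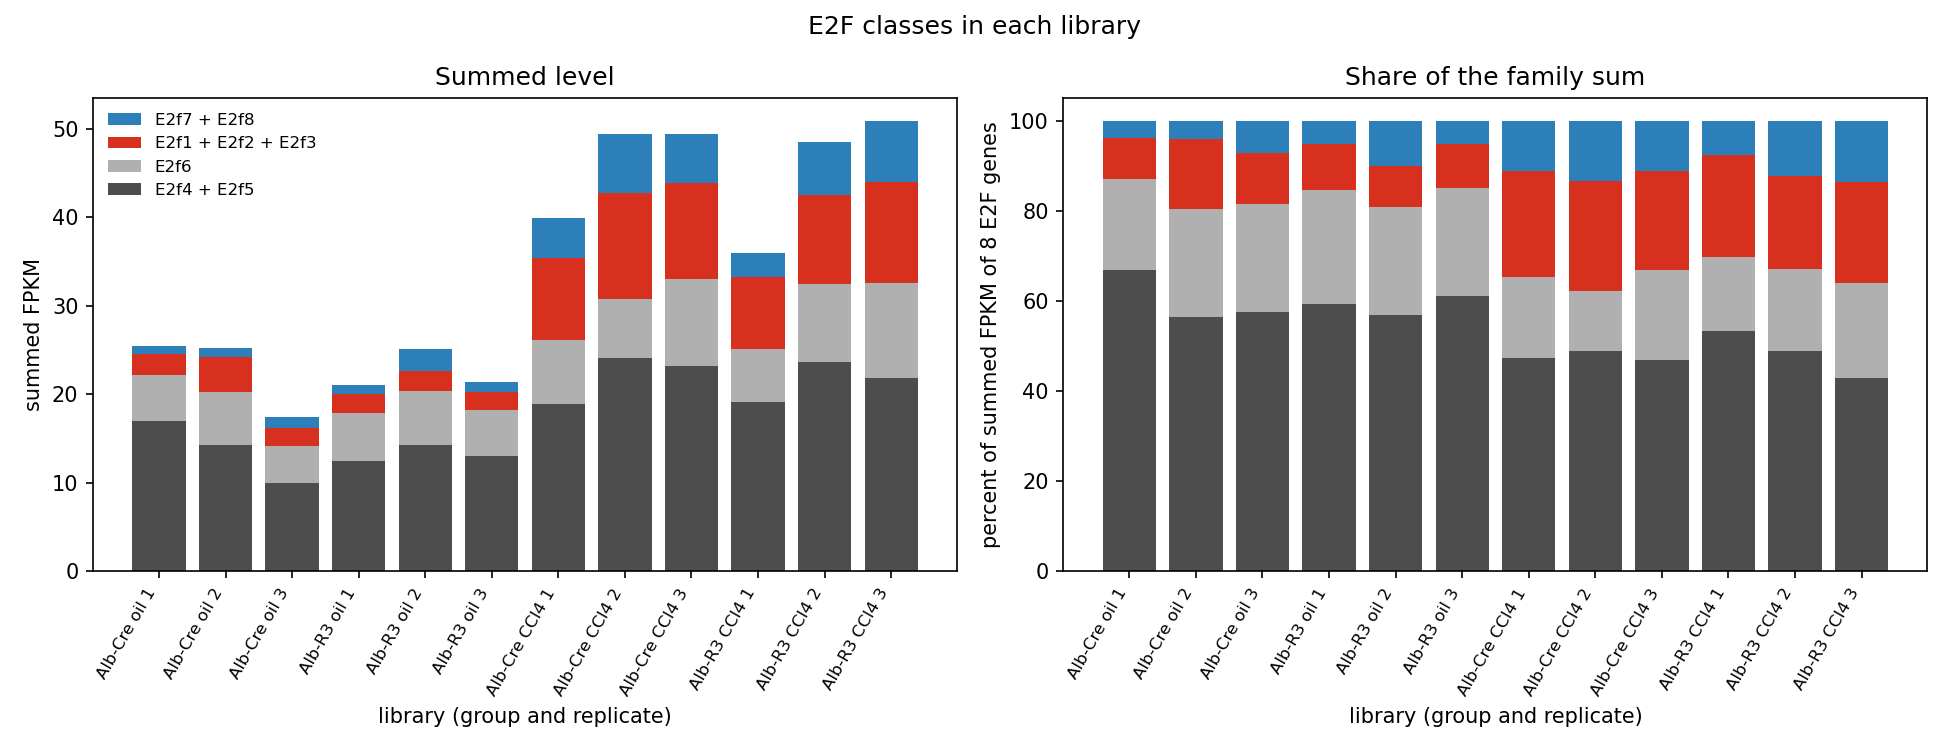
Summed FPKM of the E2F classes in each library (left) and each class as a percent of the summed FPKM of the 8 E2F genes (right). The share of E2f1 to E2f3 is between 9.02% and 15.6% in the 6 oil libraries and between 20.8% and 24.2% in the 6 CCl4 libraries.

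Ratios between classes were taken within each library. Summed activators were 0.203 ± 0.070 of the summed E2f4 and E2f5 level in Alb-Cre oil and 0.486 ± 0.016 in Alb-Cre CCl4, and 0.164 ± 0.007 and 0.458 ± 0.057 in Alb-R3. Summed E2f7 and E2f8 were 0.437 ± 0.181 of the activators in Alb-Cre oil and 0.516 ± 0.039 in Alb-Cre CCl4, with overlapping ranges. In Alb-R3 they were 0.714 ± 0.333 after oil and 0.510 ± 0.153 after CCl4. These ranges overlapped as well (0.502 to 1.097 and 0.334 to 0.607). E2f4 stood at 14.0 ± 2.7 times the level of E2f1 in Alb-Cre oil and 3.28 ± 0.09 times in Alb-Cre CCl4. Among the pocket proteins, counting also Rbl2 (p130), the member of resting cells, Rbl1 made up 1.74% ± 0.27 of the summed FPKM in Alb-Cre oil and 17.0% ± 3.9 in Alb-Cre CCl4. In Alb-R3 it made up 1.62% ± 0.60 and 18.7% ± 4.2. Rbl2 went from 74.0% ± 3.3 to 55.1% ± 4.0 in Alb-Cre, and from 67.4% ± 6.8 to 49.7% ± 6.3 in Alb-R3.

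Among 10 genes of the DP partners, Rbl2 and the MuvB complex, 2 were higher after CCl4 in Alb-Cre and 3 in Alb-R3, with a median log2 change of 0.49 and 0.50. Of all tested genes, 3.46% were higher in Alb-Cre and 10.9% in Alb-R3. Tfdp1, the main DNA-binding partner of E2F proteins, had normalized counts of 364 to 448.2 in Alb-Cre oil and 694.2 to 845.3 in Alb-Cre CCl4 (log2 0.96 ± 0.16, limma adjusted p = 0.00303) and rose by 1.01 ± 0.16 in Alb-R3 (limma adjusted p = 0.00104). Tfdp2 had log2 changes of −0.16 ± 0.27 and −0.51 ± 0.27, and Rbl2 had −0.47 ± 0.33 and −0.72 ± 0.33, none past the test. Mybl1, a relative of B-Myb, rose by 3.59 ± 0.43 (limma adjusted p = 0.00018) and 3.58 ± 0.43 (limma adjusted p = 0.000124). Mybl2, which encodes B-Myb and turns MuvB into an activator, changed by 1.94 ± 0.66 in Alb-Cre without passing the test (limma adjusted p = 0.132) and rose by 2.07 ± 0.66 in Alb-R3 (limma adjusted p = 0.045). In both genotypes its level was highest in 1 CCl4 library, at 68.6 in Alb-Cre replicate 2 and 90.8 in Alb-R3 replicate 1.

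Kinases and cyclins that phosphorylate pocket proteins were higher for 4 of 9 genes in Alb-Cre and 5 of 9 in Alb-R3 (3.46% and 10.9% of all tested genes). Cyclin D1 (Ccnd1), partner of Cdk4 and Cdk6, had 662.1 to 1120 normalized counts in Alb-Cre oil and 2993 to 7758 in Alb-Cre CCl4 (log2 2.61 ± 0.39, limma adjusted p = 0.00118), and rose by 2.66 ± 0.39 in Alb-R3 (limma adjusted p = 0.000572). Cyclin D2 (Ccnd2) was the added gene in Alb-R3 (log2 1.67 ± 0.29, limma adjusted p = 0.00168). The E cyclins, partners of Cdk2, rose by 3.26 ± 0.36 (Ccne1) and 3.54 ± 0.48 (Ccne2) in Alb-Cre and by 3.71 ± 0.36 and 3.34 ± 0.48 in Alb-R3, with limma adjusted p between 2.38e-05 and 0.000581. Cyclin A2 (Ccna2) had 3.15, 5.83 and 8.35 normalized counts in Alb-Cre oil and 1118, 410.6 and 978.3 in Alb-Cre CCl4 (log2 6.90 ± 0.62, limma adjusted p = 2.43e-05), with 7.11 ± 0.62 in Alb-R3 (limma adjusted p = 1.16e-05). Of 7 inhibitors of these kinases, 1 rose in Alb-Cre and 3 in Alb-R3. Leaving out Alb-R3 CCl4 replicate 1 raised the Alb-Cre count to 3, and leaving out replicate 3 of that group raised it to 2. Cdkn2c and Cdkn2d lay just outside the threshold there (limma adjusted p = 0.0549 and 0.0582). Cdkn1a (p21) rose by 4.18 ± 0.33 (limma adjusted p = 1.23e-05) and 4.07 ± 0.33 (limma adjusted p = 7.46e-06), and Cdkn2c by 1.70 ± 0.44 in Alb-R3 (limma adjusted p = 0.0175), where Cdkn2d also passed the test.

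Corepressors that act with pocket proteins were higher for 4 of 12 genes in Alb-Cre and 3 of 12 in Alb-R3 (3.46% and 10.9% of all tested genes). The largest changes were those of the histone methyltransferase gene Ezh2 (log2 1.66 ± 0.26 and 1.71 ± 0.26, limma adjusted p = 0.0016 and 0.000704) and the maintenance DNA methyltransferase gene Dnmt1 (1.63 ± 0.19 and 1.40 ± 0.19, limma adjusted p = 0.000146 and 0.000308). Both are also made by dividing cells. The others were Suv39h1 in both genotypes and Smarca4 in Alb-Cre. Leaving out replicate 3 of either Alb-Cre group reduced the Alb-Cre count to 2. Among 8 genes that govern the turnover of E2F proteins, 2 rose in Alb-Cre and 3 in Alb-R3. They were Cdc20 and Skp2 in both, and Ccnf in Alb-R3. Skp2, whose ubiquitin ligase marks E2F1, rose by 1.92 ± 0.32 (limma adjusted p = 0.00273) and 1.93 ± 0.32 (limma adjusted p = 0.00129). Ccnf, which encodes cyclin F, changed by 0.69 ± 0.29 in Alb-Cre without passing the test (limma adjusted p = 0.245) and rose by 0.90 ± 0.29 in Alb-R3 (limma adjusted p = 0.0485).

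Genes that E2F proteins regulate were higher as well, beside 3.46% of all tested genes higher in Alb-Cre and 10.9% in Alb-R3. Of 34 textbook G1/S targets, which encode replication proteins and enzymes of nucleotide synthesis, 32 were higher in Alb-Cre and 33 in Alb-R3, with a median log2 change of 2.73 and 2.42 beside 0.02 and 0.00 over all tested genes. Those not past the test were Tk1 in both genotypes (log2 0.96 and 0.27) and Pola1 in Alb-Cre (log2 1.24). Uhrf1, which guides Dnmt1 to replicated DNA, rose from 10.5, 1.94 and 2.39 normalized counts in Alb-Cre oil to 665, 1212 and 768 in Alb-Cre CCl4 (log2 7.46 ± 0.59, limma adjusted p = 1.23e-05). Cdc6, which loads the replicative helicase, was at 0 in replicates 1 and 2 and at 2.39 in replicate 3 of Alb-Cre oil and at 150.7, 364.9 and 206.1 in Alb-Cre CCl4 (log2 7.23 ± 0.59 on the scale with 1 added, limma adjusted p = 1.23e-05). All 24 genes of the G2/M list, which are known targets of DREAM, B-Myb and Foxm1, were higher in both genotypes, with a median log2 change of 6.32 and 6.60. Mki67, the Ki-67 antigen, went from 16.8, 2.92 and 8.35 in Alb-Cre oil to 2157, 1088 and 2040 in Alb-Cre CCl4 (log2 7.60 ± 0.53, limma adjusted p = 6.21e-06). Cdc20, which activates the anaphase-promoting complex, rose by 7.71 ± 0.78 in Alb-Cre (limma adjusted p = 4.96e-05), and Ccnb1 (8.28 ± 0.88, limma adjusted p = 4.26e-05) and Foxm1 (8.28 ± 0.53, limma adjusted p = 1.01e-06) led in Alb-R3. In the promoter windows, E2F letters stood in 12 of the 28 G1/S genes with a window (42.9%) and CHR letters in 17.9%. Of the 24 G2/M genes only 19 have a window, and 14 of these (73.7%) held CHR letters and 5.26% E2F letters. Many genes lack a window and no background of like base composition was used, as for the members. No conclusion is drawn from these shares, which describe only the genes that have a window.

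**Figure D4:**
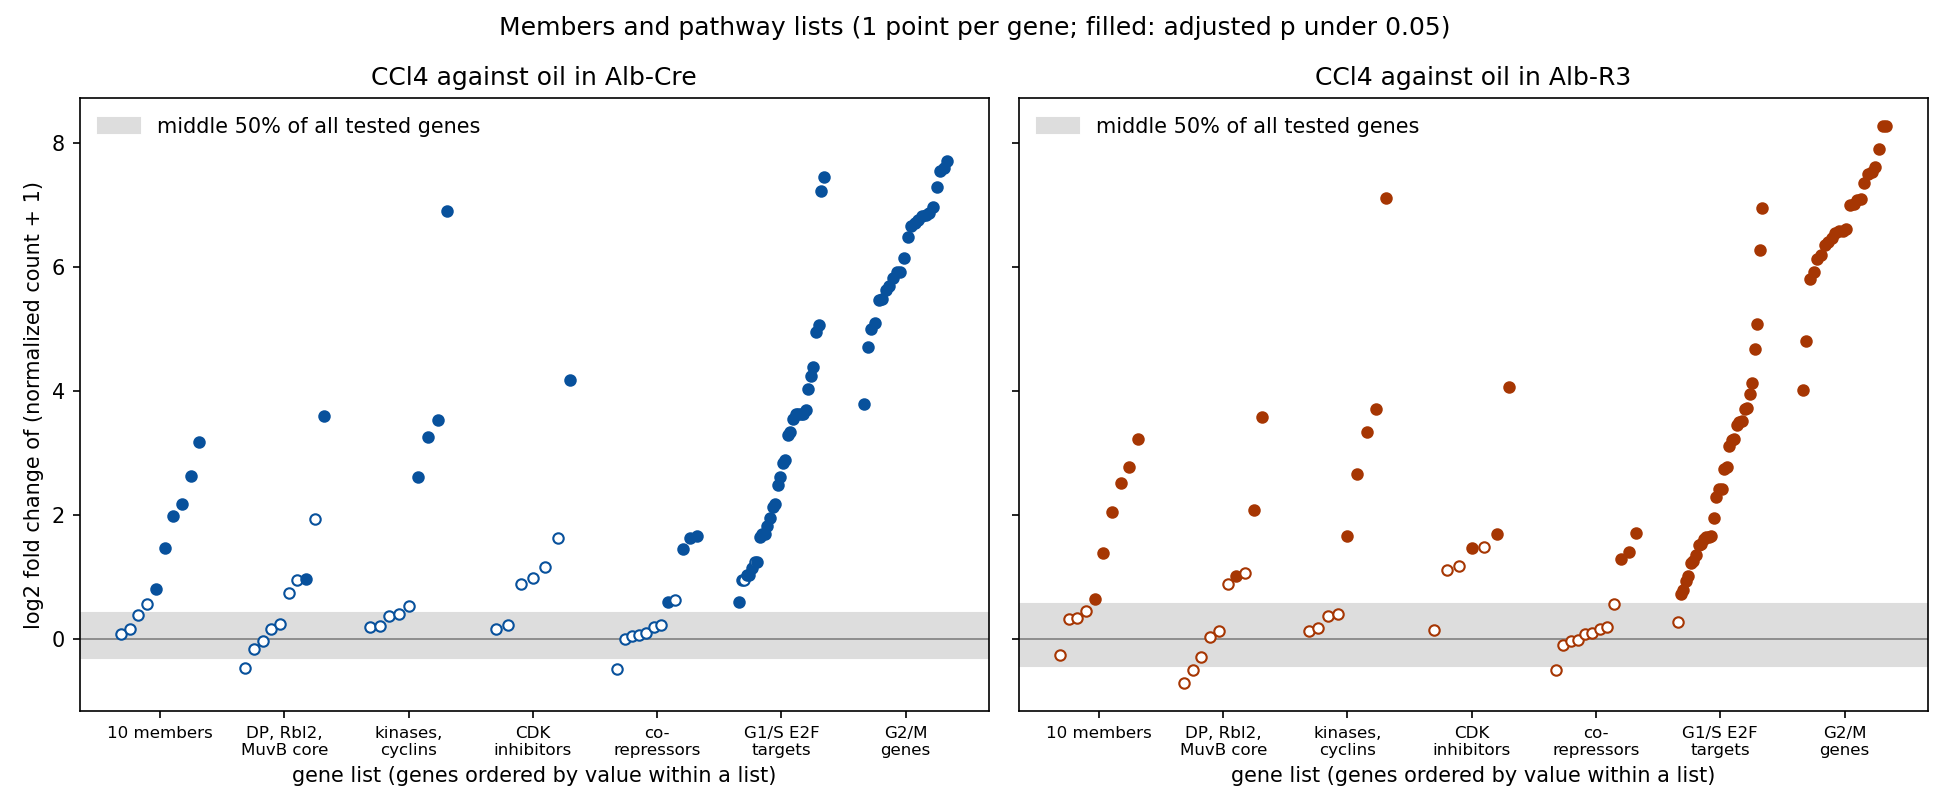
Log2 fold change of normalized count + 1 for CCl4 against oil in Alb-Cre (left) and Alb-R3 (right), with 1 point per gene, ordered by value within each list, filled where the adjusted p is under 0.05, and the middle 50% of all tested genes as a grey band. All 24 G2/M genes are filled in both genotypes and lie above the 10 members, whose highest value is that of Rbl1 (3.18 and 3.23).

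Markers of other cell types were called higher after CCl4 mainly in Alb-R3, where 10.9% of all tested genes were higher (3.46% in Alb-Cre). Kupffer cell and macrophage markers were higher after CCl4 for 0 of 16 genes in Alb-Cre and 16 of 16 in Alb-R3, endothelial markers for 0 of 16 and 13 of 16, and stellate cell and fibroblast markers for 6 of 18 and 15 of 18. The summed FPKM of the Kupffer list was 38.8 to 73.4 in Alb-Cre oil and 55.2 to 71.7 in Alb-Cre CCl4, and 25.3 to 33.5 in Alb-R3 oil and 93.2 to 438 in Alb-R3 CCl4. For the stellate list these ranges were 56.3 to 79.8 and 82.7 to 137 in Alb-Cre, and 28.6 to 34.3 and 60.1 to 162 in Alb-R3. For the endothelial list they were 74.8 to 109 and 98.9 to 150 in Alb-Cre, and 42.3 to 47.7 and 99.8 to 153 in Alb-R3. The endothelial sums of the genotypes thus differed after oil and were alike after CCl4. Cholangiocyte markers summed to 10.02 to 12.6 in the oil groups and 16.4 to 156 in the CCl4 groups, where the highest library other than Alb-R3 CCl4 replicate 1 had 44.7. Neutrophil and monocyte markers summed to 3.18 to 5.66 in the oil groups and 5.23 to 76.5 in the CCl4 groups, at most 10.2 without that same library. Lymphocyte markers summed to at most 1.51 in any library. Erythroid markers summed to 22.4 to 97.3. The part of these cells in the changes of the members was not tested.

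Between genotypes, no member passed the test. After oil, 0 of 10 members were called in Alb-R3 against Alb-Cre, beside 0.207% of tested genes, and the smallest limma adjusted p was 0.934, that of E2f8. E2f7 was the 1 member whose groups did not overlap, as for 11.3% of tested genes: its values of 5.67 to 8.30 in Alb-R3 oil lay below those of 8.40 to 14.3 in Alb-Cre oil (log2 −0.65 ± 0.38, 95% interval −1.48 to 0.18, limma adjusted p = 0.936). E2f8 differed by 0.62 ± 0.36 (95% interval −0.16 to 1.39), with Alb-R3 oil replicate 2 above the other 5 libraries. In the same comparison the endothelial markers had a median of −1.07, the stellate cell and fibroblast markers −0.97 and the Kupffer cell and macrophage markers −0.98. Alb-R3 lay below Alb-Cre without overlap for 13 of 16, 12 of 18 and 8 of 16 of them. Only 1 endothelial marker was called lower. Medians of the other marker lists, hepatocytes included, lay between −0.26 and 0.17. The part of the cell types in the member differences was not tested. One of the 3 Alb-R3 oil libraries is the library labelled Alb-R3 oil replicate 3, whose Fgfr3 count goes against its label, with the limit given above. Without that library, 0 members were called as well.

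After CCl4, 0 of 10 members were called, beside 0.173% of tested genes, and 0 had groups that did not overlap, beside 12.0% of tested genes. E2f1 had the smallest limma adjusted p, 0.755, with a log2 difference of −0.35 ± 0.22 (95% interval −0.83 to 0.13). The largest interval was that of E2f2, whose difference was 0.34 ± 0.52 (−0.79 to 1.47). For E2f4, E2f5, Rb1 and Rbl1 the log2 differences lay between −0.06 and −0.01, and the interval of Rbl1 ran from −0.74 to 0.62.

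The G1/S targets, read the same way, had log2 differences below 0 in Alb-R3 for 34 of 34 genes after CCl4, with a median of −0.39 beside 0.00 over all tested genes, and none passed the test. In the same comparison the 11 hepatocyte markers had log2 differences between −0.47 and −0.11, with a median of −0.34. The 16 Kupffer cell and macrophage markers had a median of 1.58, and none of either list passed the test. The part of the cell types in the G1/S differences was not tested. Without Alb-R3 CCl4 replicate 1, 22 of 34 were below 0 with a median of −0.20, and without Alb-Cre CCl4 replicate 2, 27 of 34 with −0.21. In contrast, the G2/M genes had a median of 0.24, which was 1.03 without Alb-R3 CCl4 replicate 1 and −0.13, −0.06 and −0.20 without Alb-Cre CCl4 replicate 2, Alb-R3 CCl4 replicate 2 or Alb-R3 CCl4 replicate 3. Target genes of these lists were neither called lower nor called higher in any of those fits.

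The change of the CCl4 response with genotype, tested as an interaction, was called for 0 of 10 members, as for 0% of tested genes. Over all genes limma called 0, with 1516 at an unadjusted p under 0.05, 6 by limma without the trend and 46 with library weights. The largest member difference in response was that of E2f8, −0.80 ± 0.51 (95% interval −1.90 to 0.31, limma adjusted p = 0.834), then that of E2f2, 0.79 ± 0.74 (−0.81 to 2.39, limma adjusted p = 0.917), and E2f7, 0.58 ± 0.54 (−0.60 to 1.75, limma adjusted p = 0.917). Without Alb-Cre oil replicate 2 the difference of E2f2 was −0.014, and that of E2f8 was −0.39 without Alb-R3 oil replicate 2 and −0.46 without Alb-R3 CCl4 replicate 1. For E2f1 it was −0.11 ± 0.31 (−0.78 to 0.57) and for Rbl1 0.05 ± 0.44 (−0.90 to 1.01).

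Genes of most similar pattern were sought by the root mean square difference between log2 profiles, each centred on its mean, over the 12 libraries. Nearest to E2f1 was Cdt1, a licensing factor of replication, at 0.210, beside an SD of 1.31 of E2f1 itself, followed by Mms22l (0.273) and Atad2 (0.282). Rbl1 was nearest to the replication genes Pole (0.264) and Lig1 (0.315) and to Tcf19 (0.317), with an SD of 1.63. E2f8 was nearest to Dck (0.352), Atad5 (0.395) and Mcm7 (0.400), and E2f7 to Map4k1 (0.251), Jam2 (0.277) and Cav2 (0.308). Near to E2f3 were Mfsd6 (0.143) and Rif1 (0.155), and nearest to E2f2 were Pcdhgb2 (0.479), Ttc26 (0.496) and Msantd3 (0.504). For E2f4 the nearest were Apex2 (0.116), Bcl2l1 (0.139) and Ints3 (0.143), for E2f5 Kif2a (0.102), Nrd1 (0.105) and Sar1a (0.106), for E2f6 Rab35 (0.0955), Adam17 (0.110) and Zfp322a (0.111), and for Rb1 Nrip1 (0.184), Taf7 (0.216) and Akap10 (0.229). Members that vary little have small distances to many genes: the SD of E2f5 was 0.189 and that of E2f6 0.258.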

How the data were processed

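RNA sequencing of 12 samples, 3 in each of 4 groups named in the labels, was read from a table of 35709 genes, 35574 of which matched a symbol. Per the file headers, the authors deposited 2 values of every gene and sample: a normalized count (a signal scaled per library) and an FPKM. Kallisto 0.44.0, edgeR and the build GRCm38.p6 appear in the submitters' processing notes, with no role stated. Among low values 70% to 74.7% per library were whole multiples (within 0.02) of the value of 1 read, so whole reads were not recovered and no count test was used. Instead, log2(normalized count + 1) of 20244 genes that reached 1 in 3 or more samples was fitted in 1 model of 4 groups with limma 3.58.1 (R 4.3.3; moderated test with trend, 8 residual degrees of freedom) and Benjamini-Hochberg adjustment at 0.05. The limma step was run on simulated log2 values without counting noise and with changes larger than that of E2f3. That run does not bear on small changes or on values from few reads. FPKM served for levels, classes and marker sums, without a test, and was tested with limma only as an alternative (log2(FPKM + 0.1)). Positions are from GENCODE (GRCm38) and promoters from RefSeq.

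Genes that complete a count of 5 or fewer (Ccnd2, Cdkn2d, Suv39h1, Smarca4, Tk1, Pola1) were named after their values were seen. Otherwise named are the 10 members; a fixed set of partners and regulators; per list the 2 genes with the largest change past the threshold in each direction; and the 3 genes of most similar pattern per member, of which 1 is not reported here. Members and lists were chosen with earlier results of these data known. Alternatives were quantile normalization, no trend, other filters and pseudocounts, a replicate block, only the 6 samples compared and each library left out; library weights and the FPKM columns were added after seeing the data.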

Additional observations from a re-analysis of the deposited data

How the results depend on the processing

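For the response to CCl4, the calls of E2f1, E2f8 and Rbl1 in Alb-Cre and of E2f1, E2f2, E2f7 and Rbl1 in Alb-R3 were kept under all 22 alternatives, and no called member changed sign. In Alb-Cre, 3 members were called with quantile normalization, 3 with only the 6 samples compared, and 3 to 6 when 1 library was left out; in Alb-R3 the last range was 4 to 6. Between genotypes and for the interaction 0 members were called under every alternative run. Among all genes, library weights called 2703 (Alb-Cre response), 663 (genotypes after oil), 103 (genotypes after CCl4) and 46 (interaction). Fits of only the 6 samples compared called 2337 (Alb-R3 response), 68 and 13, the FPKM columns called 54 after CCl4, and limma without the trend 6 for the interaction. Leaving out 1 library gave 525 to 1431, 2137 to 3782, 28 to 103, 20 to 38 and 0 to 3. The split of higher and lower calls, was 700 to 200 for Alb-Cre (547 to 234 with quantile normalization, 1096 to 88 with the FPKM columns) and 2198 to 1400 for Alb-R3 (1723 to 1640, 3118 to 544). The cause of these shifts was not tested.

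Reversed signs were all of values that did not pass the test. With quantile normalization, E2f5 (−0.10) and Rb1 (−0.022) reversed in the Alb-Cre response, E2f3 (0.0030) and Rbl1 (0.025) between genotypes after oil, E2f4 (0.025) after CCl4 and Rbl1 (−0.15) in the interaction. With library weights, E2f3 (0.086) and E2f4 (−0.22) reversed after oil, E2f4 (0.040), E2f8 (0.12), Rb1 (0.047) and Rbl1 (0.10) after CCl4, and E2f1 (0.072), E2f4 (0.26) and E2f6 (0.038) in the interaction. With the FPKM columns, Rb1 (0.0016) reversed in the Alb-R3 response. Without 1 library, E2f5 ranged from −0.023 to 0.13 in the Alb-Cre response and Rb1 from −0.56 to 0.036 in the Alb-R3 response. After oil, E2f2 ranged from −0.96 to 0.35, E2f3 from −0.10 to 0.14, E2f4 from −0.13 to 0.32 and Rbl1 from −0.22 to 0.082. After CCl4, E2f4 ranged from −0.15 to 0.14, E2f5 from −0.11 to 0.083, E2f6 from −0.0057 to 0.24, E2f7 from −0.25 to 0.059, E2f8 from −0.38 to 0.16, Rb1 from −0.24 to 0.053 and Rbl1 from −0.39 to 0.24. In the interaction, E2f1 ranged from −0.24 to 0.048, E2f2 from −0.014 to 1.30, E2f4 from −0.33 to 0.12, E2f6 from −0.18 to 0.074 and Rbl1 from −0.28 to 0.35.

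Groups share the replicate numbers 1 to 3. Of 18 pairs of samples with the same number, 3 had a correlation of deviations over 0.1 (−0.186 to 0.196). A pair with different numbers reached 0.275, so these correlations gave no sign of pairing but cannot exclude it. With the replicate block, 713, 3091, 37, 28 and 0 genes and 4, 6, 0, 0 and 0 members were called in the 5 comparisons; the members that lost their call were E2f2 (limma adjusted p = 0.0692) and E2f7 (limma adjusted p = 0.0873) in Alb-Cre. Depth limits E2f7 most, with as few as 5.01 reads behind a value.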
